A study of Mus musculus with 24 samples.

Results

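The genes described here are 31 mouse counterparts of genes in which mutations are linked to autism and related neurodevelopmental disorders. They were taken as a fixed list of names, chosen because CHD8, one of the proteins depleted in the study, is itself encoded by an autism gene, and all 31 were found among the 21938 protein-coding genes of the GENCODE vM21 annotation. By role, 12 encode chromatin readers and modifiers, 7 transcription factors and coregulators, 6 synaptic, membrane-scaffold or migration proteins, and 6 ubiquitin, kinase, microtubule or protein-modifying factors. For each gene, ATAC-seq peaks were collected within 1 kb of its annotated transcription starts, and in the gene body with 20 kb on either side, called its locus below.

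Chromatin accessibility had been measured in 24 libraries, in 12 groups of 2, all from E14, a mouse embryonic stem cell line in which CTCF carries an auxin-inducible degron (AID), a tag through which the auxin IAA triggers degradation of the protein. In the CTCF lines, a line labelled as the overexpression control was profiled both untreated and with 12 h of IAA. Lines overexpressing either wild-type or mutated CTCF were profiled with 12 h of IAA alone. The Chd4 set and the Chd8 set each comprised cells with the hairpin shluci and cells with the hairpins shRNA1 and shRNA2, all with tagged CTCF and without IAA. The serum set comprised cells labelled as grown in serum, at 0 h and after 12 h of IAA, whereas the culture protocol given for every sample describes serum-free medium. The labels do not say which residues of CTCF were mutated, whether a line is a single clone, or whether replicates came from separate cultures, so the p-values below measure only the spread between these libraries. Peak lists hold no transcript levels, so neither the knockdowns nor the loss of CTCF with IAA could be checked, and the IAA groups are described by their treatment. The peak names inside the serum lists with IAA carry the replicate numbers 2 and 4, while the samples are titled replicates 1 and 2, and the titles were used.

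ATAC-seq marks DNA that a transposase can reach, mostly promoters, enhancers and sites kept open by bound factors. CHD8 and CHD4 are ATP-driven chromatin remodellers. CHD4 is the motor of the NuRD complex and also acts with ADNP, itself encoded by one of the genes described here, while CTCF binds a long DNA motif, anchors chromatin loops and keeps its own sites open. Many autism genes encode regulators of chromatin and transcription that already act in stem cells, whereas the synaptic ones are used mainly in neurons.

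The lists held 59786 to 166697 peaks. Within a set they were reduced to the length of its shortest list by the deposited −log10 p, which left 120137 peaks per library in the CTCF lines, 80619 in the Chd4 set, 135410 in the Chd8 set and 59786 in the serum set. The depth of sequencing is unknown, and a region that a list leaves out fell below the cut of that list, which does not show that it was closed. Starts of 7 stem cell genes were checked as a control of cell identity: 4 to 7 of them had a peak in each library, Nanog, Sox2, Esrrb and Tfcp2l1 in all 24, and the lowest count, 4, was in 2 shRNA libraries of the Chd4 set. Of 6 fibroblast genes 1 to 3 had a peak, of 5 neuronal genes 1 to 4, and of 5 endodermal genes 1 to 4. The fibroblast gene Col1a1 and the neuronal gene Syn1 had a peak in all 24 libraries, and Lum, Postn, Dcx and Afp in none.

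Most of these genes had an open promoter in stem cells. In bulk libraries, a site open in fewer cells and a site less open in each cell cannot be told apart. A peak lay within 1 kb of a start in all 24 libraries for 16 of the 31 genes (51.6%), against 28.8% of all protein-coding genes, and no gene of the 31 lacked a promoter peak throughout, against 20.9% of all. By role these were 3 of the 12 chromatin genes (Ash1l, a histone methyltransferase, Auts2, a subunit of a variant Polycomb complex, and Setd5, a SET-domain protein), 4 of the 7 transcription genes (Foxp1, Tbr1, Tcf4 and Bcl11a), 4 of the 6 synaptic and scaffold genes (Shank3, Ank2, Ank3 and Reln) and 5 of the other 6 (Cul3, Trip12, Wac, Katnal2 and Naa15). Of 33 further autism-linked genes listed for comparison, 9 had a promoter peak in all 24 libraries, a share close to the 28.8% of all protein-coding genes. A gene with several separate promoters has more chances to be counted, and 12 of the 31 genes had 2 or more promoter regions (38.7%, against 17.9% of all genes). Of the 19 with 1 promoter region, 7 had a peak in all 24 libraries (36.8%, against 28.4% of all such genes). Of the 12 with 2 or more, 9 had one (75.0%, against 30.8% of all such genes). For Auts2 and Foxp1 no single promoter region had a peak throughout, and requiring one left 14 genes (45.2%, against 28.3%). Counting the starts of every transcript in the full annotation, instead of its basic set, raised the count to 18 (58.1%, against 32.1% of all genes) by adding Tcf20, a nuclear coregulator, and Asxl3, a partner of a Polycomb deubiquitinase. The count was 10 within 500 bp of a start (32.3%, against 25% of all genes), 7 with all 24 lists reduced to 59786 peaks (22.6%, against 17.9%), and 1 with peaks of −log10 q of at least 10 alone (3.23%, against 2.55%).

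**Figure D1:**
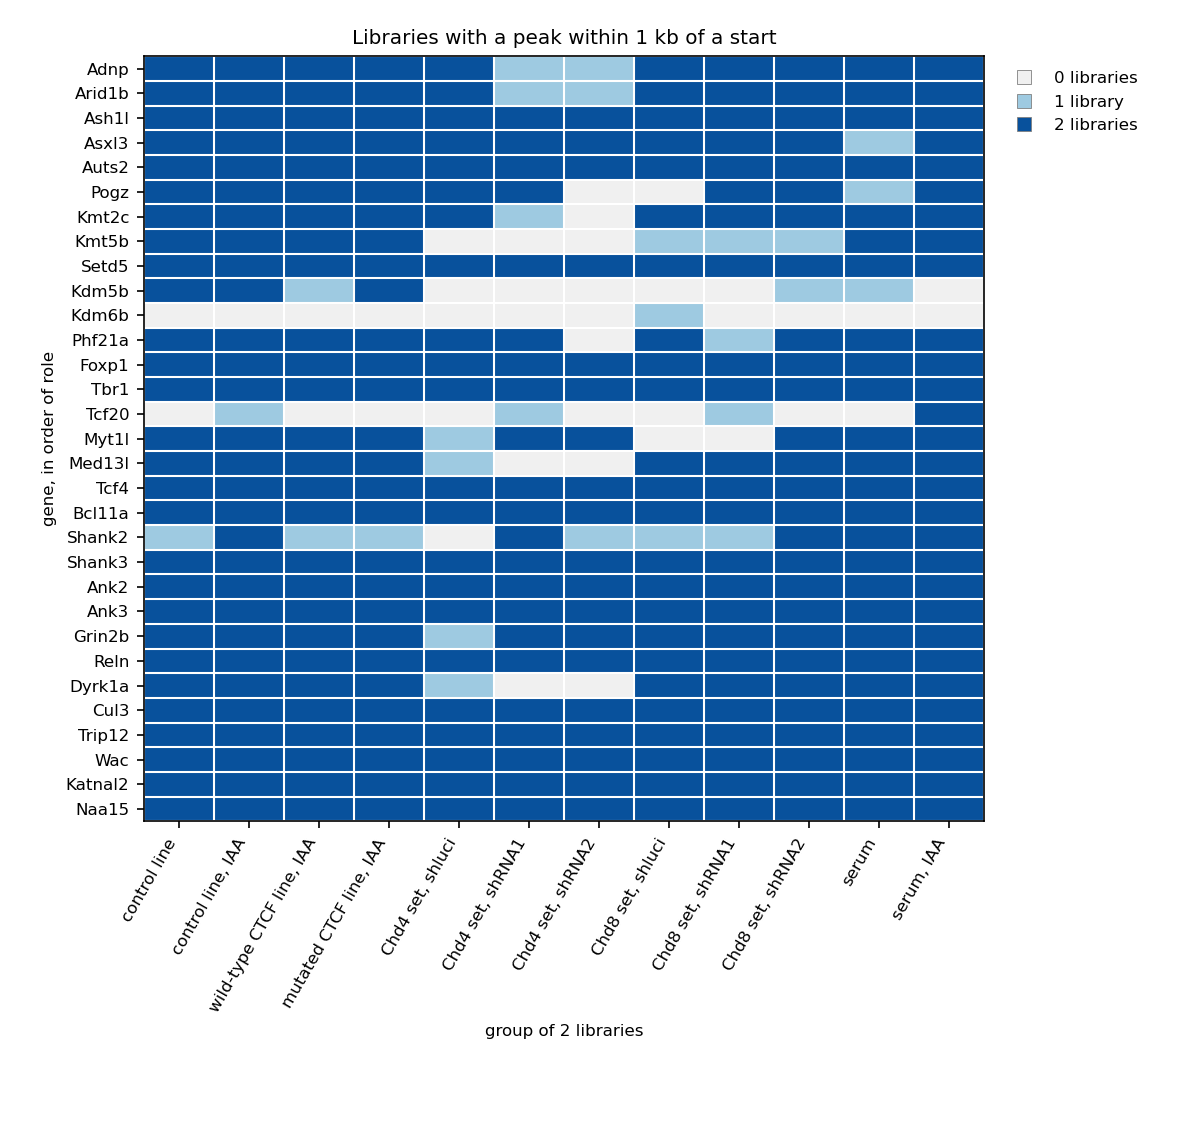
Number of libraries, of the 2 in each group, with a deposited peak within 1 kb of a start of each of the 31 genes (rows, in order of role: 12 chromatin, 7 transcription, 6 synapse and scaffold, 6 other) in the 12 groups (columns). The pale cells lie mostly in the Chd4 columns and in the rows of Kdm5b, Kdm6b, Tcf20, Kmt5b and Shank2.

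The strength of a promoter was read as the percentile of its best peak within lists of 59786, where 100 is the strongest peak and 0 means not listed. The best peak was taken over all promoter regions of a gene, 5 for Ank2 and 6 for Tcf4 against 1 each for Cul3 and Reln. The highest medians over the 24 libraries were 97.6 for Ank2 and 96.6 for Cul3, followed by 94.4 for Tcf4. Ank2 encodes ankyrin-B, a membrane scaffold, Cul3 the scaffold of a family of ubiquitin ligases, and Tcf4 a helix-loop-helix transcription factor. Reln, which encodes the extracellular protein reelin that guides migrating neurons, had a promoter peak in every deposited list but a median of 27.9, and it was listed at this length in 18 libraries. The CpG-rich promoters of Cul3 and Reln, strong and weak ones with a peak in all 24 libraries, are shown with that of Kmt2c, a histone methyltransferase gene, which had a peak in 21. Each is the 200 bases before the RefSeq start on GRCm38.p6, 5′ to 3′ on the strand of the gene (the minus strand for all of them), with CG dinucleotides in capitals: chr1:80340691-80340890 for Cul3, chr5:22344706-22344905 for Reln and chr5:25498784-25498983 for Kmt2c.
Cul3: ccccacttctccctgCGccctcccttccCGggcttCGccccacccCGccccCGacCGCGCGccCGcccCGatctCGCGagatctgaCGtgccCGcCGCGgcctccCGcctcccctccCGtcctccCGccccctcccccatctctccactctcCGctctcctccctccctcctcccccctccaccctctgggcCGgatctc
Reln: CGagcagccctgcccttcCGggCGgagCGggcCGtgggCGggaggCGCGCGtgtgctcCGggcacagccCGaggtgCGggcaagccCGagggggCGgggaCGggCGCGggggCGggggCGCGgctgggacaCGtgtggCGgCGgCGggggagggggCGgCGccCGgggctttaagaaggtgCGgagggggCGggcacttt
Kmt2c: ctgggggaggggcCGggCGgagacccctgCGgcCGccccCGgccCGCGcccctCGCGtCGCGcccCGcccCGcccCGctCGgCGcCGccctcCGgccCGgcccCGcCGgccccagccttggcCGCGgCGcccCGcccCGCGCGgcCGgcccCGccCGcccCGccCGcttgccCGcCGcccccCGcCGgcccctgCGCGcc
They hold 21, 29 and 39 CG dinucleotides. RefSeq promoters of 300 bases were matched for 21 of the 31 genes, 34 promoters in all, with a median of 16.5 CG dinucleotides against 7 over 32851 promoters. The letters CCGGAAG, searched on both strands, occurred in 1 of the 34 (Reln) and in 8.86% of all promoters.

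The remaining 15 genes lacked a promoter peak in at least 1 library, and the gaps fell unevenly over the sets. Kdm6b, a histone demethylase gene, had a promoter peak in 1 library, a shluci library of the Chd8 set. Tcf20 had one in 5 libraries at its basic starts, including both serum libraries with IAA, but in all 24 at its outermost start in the full annotation. Kdm5b, another histone demethylase gene, had one in 9: 7 of the 8 libraries of the CTCF lines, none of the 6 of the Chd4 set, 1 of the 6 of the Chd8 set and 1 of the 4 of the serum set. Kmt5b, a histone methyltransferase gene, had one in 15 libraries, all 8 of the CTCF lines, all 4 of the serum set, 3 of the Chd8 set and none of the Chd4 set. Shank2, a postsynaptic scaffold gene, had one in 16 libraries with no set complete except serum.

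The next 4 genes each had a promoter peak in 19 libraries and in every library of the CTCF lines. Med13l, a gene of the Mediator kinase module, and Dyrk1a, a protein kinase gene, lacked it in 5 of the 6 libraries of the Chd4 set and nowhere else. Myt1l, whose product represses non-neuronal genes, lacked it in the 4 libraries of Chd8 shluci and shRNA1 and in 1 Chd4 shluci library. Pogz, which encodes a zinc-finger protein that binds heterochromatin protein 1, lacked it in both Chd4 shRNA2 libraries, both Chd8 shluci libraries and 1 serum library.

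Of the other 6 genes, Kmt2c lacked a promoter peak in 3 Chd4 libraries and Phf21a, a subunit gene of the LSD1 corepressor, in 2 Chd4 and 1 Chd8 library. Adnp and Arid1b, the latter a BAF remodeller subunit gene, each lacked it in 2 Chd4 shRNA libraries. Grin2b, an NMDA receptor subunit gene, lacked it in 1 Chd4 shluci library, and Asxl3 in 1 serum library. Over all protein-coding genes, too, promoter peaks were fewest in the Chd4 set: 45.8% to 60.5% of genes had one there, 62.2% to 67.9% in the Chd8 set, 64.8% to 67.6% in the serum set and 70.4% to 71.3% in the CTCF lines. The gap grew with GC content. Of the 2836 genes whose outermost start has a GC content of 70% or more, 69.2% had a promoter peak in a library of the Chd4 set on average against 98.2% in the CTCF lines, and for the 12 of the 31 genes in this class the values were 79.2% and 100%. In the class of 60% to 70%, 8 of the 31 genes had a promoter peak in 54.2% of cases in the Chd4 set and 87.5% in the CTCF lines, against 74.6% and 97% of all genes. The part of base composition in the missing promoters was not tested.

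The loci of the 31 genes held 1174 of the 233706 windows of 501 bp that at least 2 libraries called in the reduced lists. Introns held 746 of them (63.5%), promoters 107, coding exons 96, UTRs and non-coding exons 23, and the flanks 96 upstream and 106 downstream. No window belonged to the loci of 2 of the genes, and 98 lay near the start of some other gene. All 24 libraries called 27 of the windows (2.3%, against 3.72% of all windows), 10 of the 107 in promoters and 17 of the 1067 elsewhere. Window density ran from 2.53 per 100 kb at Myt1l to 35.6 at Dyrk1a, with a median of 15.9 per 100 kb. The genes are long, with a median of 129 kb against 17.4 kb over all protein-coding genes, and the longest, Auts2, held 109 windows, next to 108 at Arid1b.

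In the Chd8 set, the number of open windows over all 31 loci overlapped between shluci and shRNA libraries. The loci held 432 and 503 called windows in the shluci libraries, 456 and 438 in shRNA1, and 507 and 511 in shRNA2. As a share of all called windows this was 0.464% and 0.465% in shluci, 0.464% and 0.480% in shRNA1, and 0.473% and 0.465% in shRNA2, so these ranges overlapped too. Against the mean of shluci, the mean of the 4 shRNA libraries was lower for 12 genes, higher for 16 and equal for 3, with a median difference of 0.5 windows (0 over all genes). With shRNA1 the mean was lower for 17 genes and higher for 11 (median -0.5, 0 over all genes). With shRNA2 it was lower for 8 and higher for 21 (median 1.0, 0.5 over all genes). The hairpins differed likewise among genes with at least 10 windows. Of these, the shRNA1 mean was lower for 54.4% (median -0.5), against 54.8% of the 31. The shRNA2 mean was lower for 31.2% (median 0.5), against 25.8% of the 31. With both hairpins together the mean was lower for 44.1%, against 38.7% of the 31. The 2 shluci libraries were unlike each other: their peaks covered 16.4 Mb and 30.0 Mb before reduction, against 14.8 Mb to 28.7 Mb in the shRNA libraries.

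**Figure D2:**
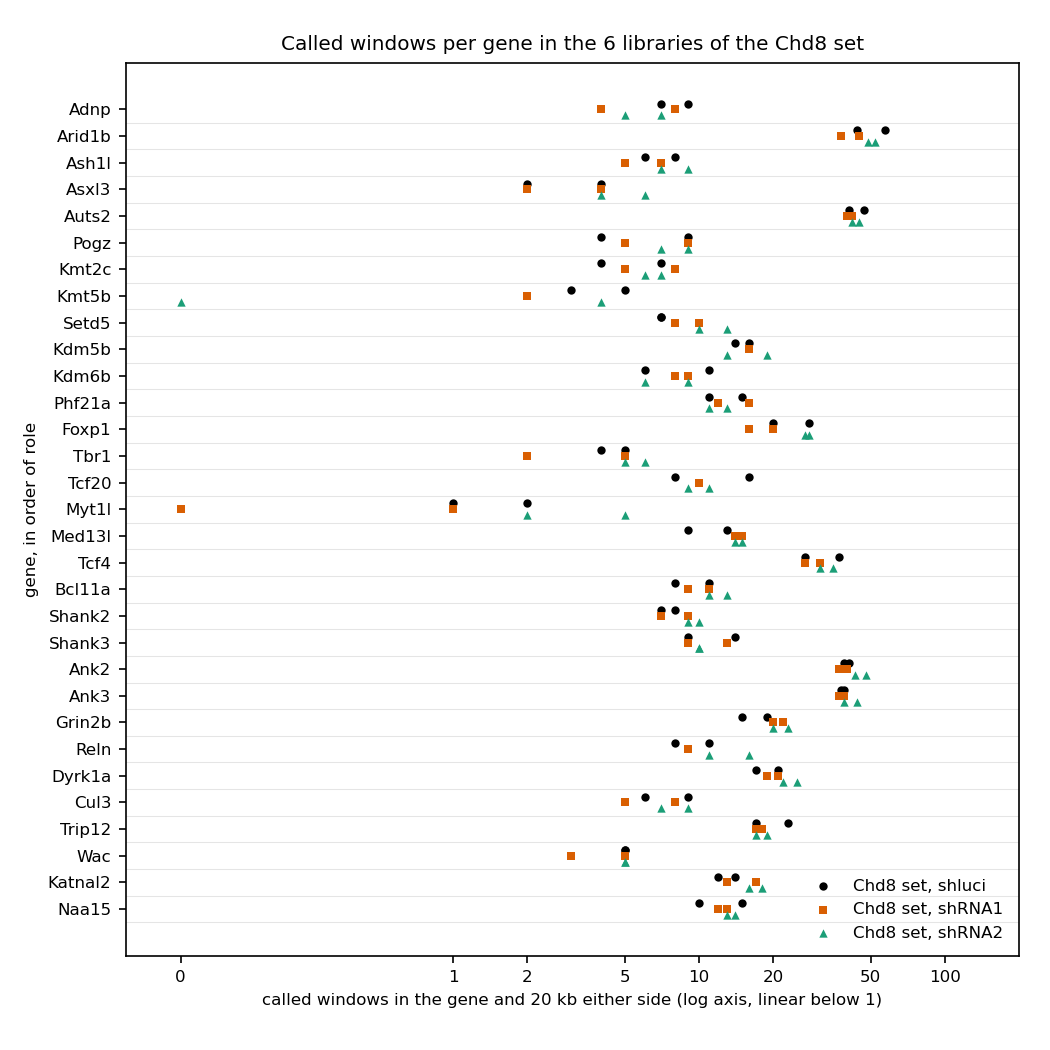
Called 501-bp windows in the locus of each of the 31 genes (rows) in each of the 6 libraries of the Chd8 set (symbols, by hairpin; the axis is logarithmic above 1 window). Shluci and shRNA symbols overlap in every row except Setd5, Med13l and Grin2b, where all shRNA symbols lie to the right.

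Of the 31 genes, 3 had more called windows in all 4 shRNA libraries than in either shluci library (9.68%, against a background of 2.82% of 20158 genes and 3.6% of the 12151 genes with at least 10 windows), and none had fewer (backgrounds 2.94% and 3.23%). Setd5 had 7 and 7 called windows in shluci, 10 and 8 in shRNA1, and 10 and 13 in shRNA2. Med13l had 13 and 9 in shluci, 14 and 15 in shRNA1, and 14 and 15 in shRNA2. Grin2b had 15 and 19 in shluci, 22 and 20 in shRNA1, and 23 and 20 in shRNA2. In each of the 3 genes the lowest shRNA value was 1 window above the highest shluci value. The means were 7.0 ± 0.0 and 10.2 ± 2.06 for Setd5, 11.0 ± 2.83 and 14.5 ± 0.577 for Med13l, and 17.0 ± 2.83 and 21.2 ± 1.5 for Grin2b (shluci and shRNA, SD, n = 2 and 4), differences that did not pass the test. The two-sided exact permutation p was 0.2, 0.0667 and 0.0667, adjusted to 1.0 in each case over 20158 genes by Benjamini-Hochberg, and 0.0667 is the smallest p that 2 libraries against 4 can give. None of 33 further autism-linked genes had more or fewer. The count of 3 fell to 1 with lists at their deposited length, at 50% of the shortest, or with gene bodies alone (3.23%, against 1.75% to 1.86% of all genes), fell to 0 with a −log10 q of at least 10 or with windows covered by at least 50%, and rose to 10 without shluci replicate 2 and to 5 without shRNA1 replicate 2 (32.3% and 16.1%, against 17.1% and 6.5% of all genes). The count of genes with fewer windows rose to 7 without shluci replicate 1, to 3 without shluci replicate 2 and to 1 without shRNA2 replicate 2 (22.6%, 9.68% and 3.23%, against 16.3%, 7.66% and 5.34%).

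Single windows changed with both Chd8 hairpins at about the rate seen genome-wide. Of 282 windows in the loci that both shluci libraries called, no shRNA library called 10 (3.55%, against a background of 3.46%). Of 521 windows that neither shluci library called, all 4 shRNA libraries called 8 (1.54%, background 1.28%). With single hairpins, 22 windows were lost (7.8%, background 9.77%) and 23 gained (4.41%, background 4.55%) with shRNA1, and 18 lost (6.38%, background 7.35%) and 40 gained (7.68%, background 8.1%) with shRNA2. All of these comparisons share the shluci libraries. None of the 10 lost windows lay in a promoter: 7 were intronic and 3 flanking, and they were weak in shluci, with a median percentile of 34.6 against 66.9 for windows not lost. With peaks of −log10 q of at least 10, 1 window was lost and 1 gained (2.0% and 0.0968%, against 2.86% and 0.088%). Without shluci replicate 1 the rule found 61 lost and 23 gained (12.1% and 3.43%, against 10.4% and 2.54% of all windows), and without shluci replicate 2 it found 50 and 42 (11.6% and 5.66%, against 10.2% and 4.77%). Without shRNA1 replicate 2 or shRNA2 replicate 1 it found 16 or 13 gained (3.07% or 2.5%, against 3.03% or 2.03%). For single hairpins, leaving out any 1 of the 4 libraries compared gave 34 to 115 lost and 52 to 112 gained (12.1% to 22.9% and 7.75% to 21.1%, against 14.4% to 22.5% and 6.79% to 21.7% of all windows).

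Percentiles of windows below are within the reduced list of each library, where 0 means not called, and since list lengths differ between sets, values from several sets are listed without being compared. The 6 strongest lost windows lay at Arid1b (2), Auts2, Wac, Ank3 and Adnp. The first, in an intron of Arid1b at chr17:5331132-5331632, had percentiles of 61.7 and 43.2 in shluci and was outside the lists of all 4 shRNA libraries, and 1 control line library (32.5) was the only other library to call it. The second, in an intron of Auts2 upstream of an internal start, at chr5:131545685-131546185, had percentiles of 20.6 and 66.6 in shluci, and it was also called by all 8 libraries of the CTCF lines (36.0 to 59.0), by 1 Chd4 shluci library and by both serum libraries with IAA. The second Arid1b window, in the flank upstream of the gene at chr17:4984664-4985164, had percentiles of 14.3 and 62.3 in shluci, 57.3 to 74.6 in the CTCF lines and 35.4 and 46.5 in Chd4 shluci, and no serum library called it. The windows at Wac, an adaptor gene of histone ubiquitination (73.5 and 1.86 in shluci), Ank3, the ankyrin-G gene (32.6 and 38.1), and Adnp (34.5 and 33.1) were likewise outside all 4 shRNA lists. At deposited list length, 1 shRNA library also called the upstream Arid1b window, and none called the other 5. No shluci peak in any of the 6 had a −log10 q of 10 or more.

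The 6 strongest gained windows lay at Bcl11a, Ank2 (2), Naa15, Ank3 and Tcf4. The window in the upstream flank of Bcl11a, a zinc-finger repressor gene, at chr11:24057976-24058476 had percentiles of 52.5 and 71.5 in shRNA1 and 63.2 and 55.8 in shRNA2, and the CTCF lines called it in all 8 libraries (58.8 to 71.4). An intronic window of Ank2 at chr3:126966124-126966624, near the start of A930036I15Rik, had 35.0 and 56.9 in shRNA1 and 48.4 and 66.2 in shRNA2, and 6 of the 8 libraries of the CTCF lines called it. The other 4 windows, with their percentiles in shRNA1 and then shRNA2, were one upstream of Naa15 near the start of Mgarp, Naa15 being a subunit gene of an N-terminal acetyltransferase (37.5, 61.7, 32.0, 61.2), one in an intron of Ank2 (41.8, 67.9, 36.2, 34.8), one in a coding exon of Ank3 (39.4, 54.7, 42.2, 41.4) and one in an intron of Tcf4 (53.2, 23.0, 63.1, 26.8). At deposited length, 1 shluci library also called those of Naa15, Ank2 (the second) and Ank3. No shRNA peak in any of the 6 had a −log10 q of 10 or more. Each of the 6 gained windows was also called by at least 7 of the 8 libraries of the CTCF lines, except the first Ank2 window.

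The first 2 lost and the first 2 gained windows are shown, each as 201 bases of GRCm38.p6 on the plus strand. They had the highest mean percentiles in the libraries that called them, which ranks strength and not the size of the change. They lie at chr17:5331306-5331506 (Arid1b, lost), chr5:131545653-131545853 (Auts2, lost), chr11:24058057-24058257 (Bcl11a, gained) and chr3:126966103-126966303 (Ank2, gained). Capitals mark the first stretch of bases covered by peaks in the largest number of the libraries that define the change, before reduction.
Arid1b: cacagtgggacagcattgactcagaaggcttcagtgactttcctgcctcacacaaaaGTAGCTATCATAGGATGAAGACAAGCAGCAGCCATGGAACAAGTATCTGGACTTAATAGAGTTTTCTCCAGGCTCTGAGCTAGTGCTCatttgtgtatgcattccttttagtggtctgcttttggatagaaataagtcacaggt
Auts2: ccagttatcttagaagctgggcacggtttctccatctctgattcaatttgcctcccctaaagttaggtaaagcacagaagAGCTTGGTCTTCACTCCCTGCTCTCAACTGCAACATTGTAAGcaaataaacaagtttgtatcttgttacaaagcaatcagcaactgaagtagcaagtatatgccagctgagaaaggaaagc
Bcl11a: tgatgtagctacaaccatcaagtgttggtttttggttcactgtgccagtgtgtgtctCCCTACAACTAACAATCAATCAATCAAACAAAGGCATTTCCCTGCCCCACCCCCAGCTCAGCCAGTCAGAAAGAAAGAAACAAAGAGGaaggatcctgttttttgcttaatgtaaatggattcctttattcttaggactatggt
Ank2: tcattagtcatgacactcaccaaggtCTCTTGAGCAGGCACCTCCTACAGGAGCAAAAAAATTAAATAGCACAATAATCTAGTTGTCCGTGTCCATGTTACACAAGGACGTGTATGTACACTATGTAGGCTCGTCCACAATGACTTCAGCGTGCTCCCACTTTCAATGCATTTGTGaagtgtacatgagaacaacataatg
In the Arid1b window, 88 bases were covered in both shluci libraries. In the Auts2 window the shluci peaks covered separate bases, so the capitals stand for 1 library of 2 and the loss rests on neighbouring peaks. In the Bcl11a window 88 bases, and in the Ank2 window 150 bases, were covered in 3 of the 4 shRNA libraries. GC content of the 4 sequences was 41.8% to 43.8%.

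The promoter of Pogz was the one promoter of the 31 that changed with both Chd8 hairpins in the deposited lists. Neither shluci library had a peak there, and all 4 shRNA libraries had one, with percentiles in the reduced lists of 12.8 and 15.3 in shRNA1 and 26.3 and 68.1 in shRNA2. This made 1 gained promoter among the 4 genes without a shluci promoter peak (background 0.612% of 6541 promoters), and 0 lost among 24 (background 0.532%). By single hairpin, 0 of the 24 were lost with shRNA1 (background 1.41%) or shRNA2 (background 1.25%), and Pogz alone was gained with shRNA1 (background 1.36%). In the CTCF lines its percentiles were 84.3 to 91.3, in the Chd4 set 0 to 17.3 and in the serum set 0 to 18.1. The Myt1l promoter was outside both shluci and both shRNA1 lists and had percentiles of 38.3 and 50.4 in shRNA2, where 2 of the 4 genes gained a promoter peak (background 1.94%). This look at promoters by comparison was added after the promoter values had been seen.

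In the Chd4 set the loci of the 31 genes held fewer called windows with the hairpins than with shluci. They held 291 and 300 called windows in shluci, 223 and 228 in shRNA1, and 229 and 241 in shRNA2. All called windows were fewer too, at 66304 and 69091 in shluci, 61808 and 62909 in shRNA1, and 58386 and 61293 in shRNA2. The loci held 0.439% and 0.434% of all called windows in shluci, 0.361% and 0.362% in shRNA1, and 0.392% and 0.393% in shRNA2. All 4 shRNA libraries thus lay below both shluci libraries in this share. All 12 groups lay between 0.362% and 0.519% on average, with the Chd4 shRNA groups lowest. With all lists reduced to 59786 peaks the Chd4 shRNA libraries held 0.341% to 0.364%, and the lowest value elsewhere was 0.380%. Peaks before reduction covered 17.0 Mb and 18.2 Mb in shluci and 10.9 Mb to 15.0 Mb in the shRNA libraries, and the part of covered length in the lower counts was not tested. Of the 7 stem cell genes, 6 and 6 had a promoter peak in shluci, 6 and 4 in shRNA1 and 4 and 5 in shRNA2. Of the 5 neuronal genes these were 2 and 1, 3 and 3, and 3 and 2, of the 6 fibroblast genes 2 and 1, 2 and 2, and 2 and 2, and of the 5 endodermal genes 1 and 4, 2 and 2, and 1 and 3. The ranges of shluci and shRNA libraries overlapped or met in each list, and the part of cell identity in the lower counts was not tested.

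**Figure D3:**
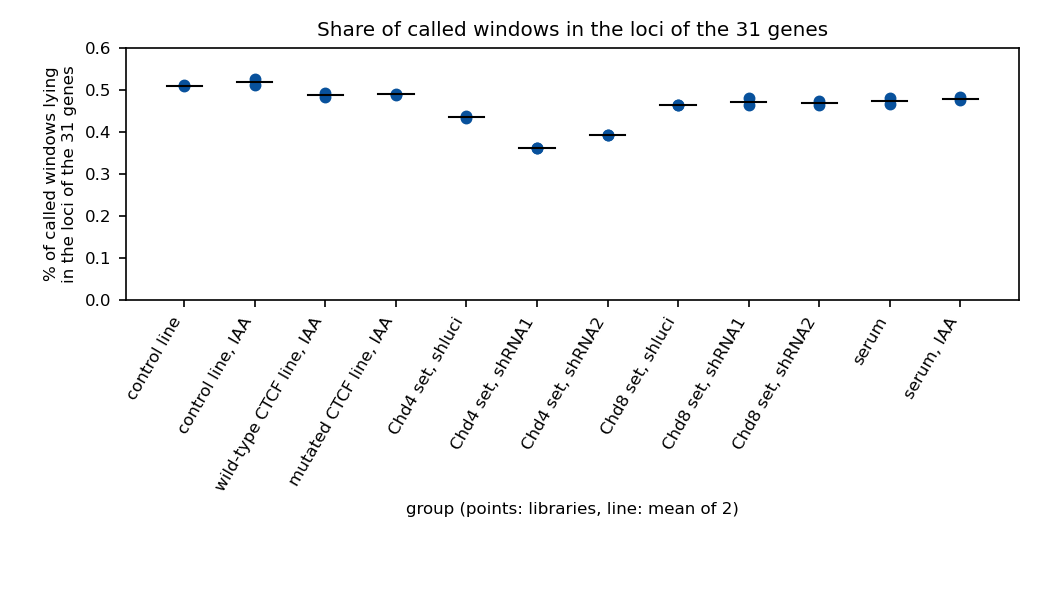
Percentage of the called windows of each library that lie in the loci of the 31 genes (points, 2 libraries per group; lines, group means) in the 12 groups. The Chd4 shRNA1 and shRNA2 libraries, at 0.361% to 0.393%, lie below every other library.

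Of 201 windows that both Chd4 shluci libraries called, none of the 4 shRNA libraries called 38 (18.9%, background 14.2%), in 17 of the 31 loci. Of 784 windows that neither shluci library called, all 4 shRNA libraries called 2 (0.255%, background 1.92%). The lost windows lay in introns (25), flanks (6), promoters (3), coding exons (3) and a UTR or non-coding exon (1). Auts2 held 9 of them, Arid1b 4, and Reln and Dyrk1a 3 each. With single hairpins, 61 were lost (30.3%, background 24.1%) and 20 gained (2.55%, background 6.0%) with shRNA1, and 69 lost (34.3%, background 28.7%) and 25 gained (3.19%, background 6.08%) with shRNA2. These comparisons share the shluci libraries. Without shluci replicate 1 or 2, 84 or 78 windows were lost with both hairpins (28.0% and 26.8%, backgrounds 22.5% and 22.6%), and leaving out any 1 library raised the 2 gained windows to 4 to 9 (0.51% to 1.15%, against 2.42% to 3.01%). Among promoters, shRNA2 libraries lacked 3 of 22 promoter peaks present in both shluci libraries (Pogz, Kmt2c and Phf21a, background 11.4%), shRNA1 libraries lacked 0 (background 7.03%), and shRNA1 gained 1 of 5 (Shank2, background 3.97%) where shRNA2 gained 0 (background 3.03%). With both hairpins 0 of 22 promoters were lost (background 2.91%) and 0 of 5 gained (background 1.19%).

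Per gene, 8 of the 31 had fewer called windows in all 4 Chd4 shRNA libraries than in either shluci library (25.8%), and none had more. The background was 19.3% fewer and 3.92% more over 20158 genes, and 26.7% fewer and 3.35% more over the 12151 genes with at least 10 windows, which these long genes resemble more. Of 33 further autism-linked genes, 10 had fewer (30.3%) and 2 more. Auts2 had 38 and 45 called windows in shluci, 21 and 22 in shRNA1, and 27 and 26 in shRNA2. Arid1b had 27 and 30 in shluci, 21 and 22 in shRNA1, and 18 and 21 in shRNA2. Shank3, a postsynaptic scaffold gene, had 7 and 10 in shluci, 6 and 5 in shRNA1, and 3 and 4 in shRNA2. Of these 3 genes, Auts2 had the largest difference of means and Shank3 the smallest.

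The group means for Auts2 were 41.5 ± 4.95 and 24 ± 2.94 windows (SD, n = 2 and 4), the largest difference among the 31. Katnal2, a katanin-like microtubule gene, had 11 and 11 in shluci, 5 and 8 in shRNA1, and 3 and 7 in shRNA2. Naa15 had 10 and 11 in shluci, 8 and 6 in shRNA1, and 3 and 8 in shRNA2. Kdm6b averaged 5.5 windows in shluci and 2.25 with the hairpins, Kdm5b 6.0 and 3.0, and Ash1l 4.0 and 2.0. The exact permutation p of these 8 genes was 0.0667 to 0.2, with 0.0667 the smallest the design allows, and 0.38 to 0.671 after Benjamini-Hochberg adjustment over 20158 genes, so none passed. The count of 8 was 5 (16.1%) at deposited list length or with gene bodies alone, against 18.2% and 9.0% of all genes, so at deposited length the share of the 31 lay below that of all genes. It was 13 with a −log10 q of at least 10 and 15 without shluci replicate 2 (41.9% and 48.4%, against 22.7% and 29.2%). Over all 31 genes, the shRNA mean was lower for 23 (74.2%, against 75.1% of genes with at least 10 windows) and higher for 8.

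**Figure D4:**
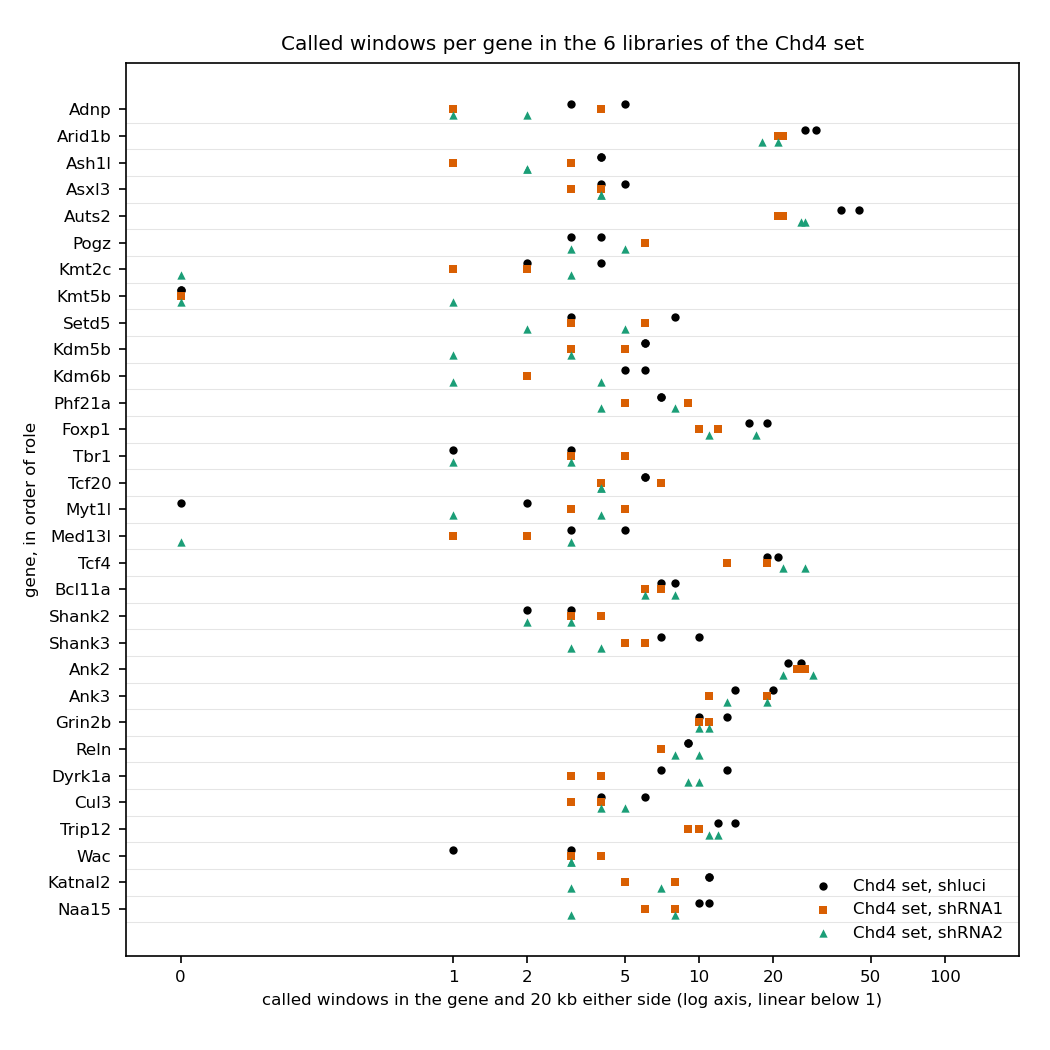
Called 501-bp windows in the locus of each of the 31 genes (rows) in each of the 6 libraries of the Chd4 set (symbols, by hairpin; the axis is logarithmic above 1 window). Auts2 stands apart, with 38 and 45 windows in shluci and 21 to 27 with the hairpins.

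The strongest windows lost in the Chd4 set were open nearly everywhere else. An intronic window of Auts2 at chr5:131449086-131449586 had percentiles of 77.4 and 89.7 in shluci, was outside the reduced lists of all 4 shRNA libraries, and was called by all 18 libraries outside the set (50.5 to 91.4). Another in an Auts2 intron, chr5:132477495-132477995, had 71.8 and 90.2 in shluci and 45.8 to 88.6 in the 18 libraries outside the set. An intronic window of Reln, 35435 bp into the gene at chr5:22309005-22309505, had 75.0 and 80.8 in shluci, and all 18 libraries outside the set called it. An intronic window of Cul3 at chr1:80315701-80316201 had 76.6 and 71.7 in shluci and was called by 16 of the 18 other libraries. At deposited length 2, 1, 1 and 0 of the 4 shRNA libraries called these windows, so the loss of the first 3 rests partly on the list length. The 2 gained windows were a coding exon of Ank2 at chr3:126959605-126960105 (67.5, 93.0, 88.5 and 82.5 with the hairpins) and a region in the upstream flank of Phf21a at chr2:92075999-92076499 (82.8, 46.9, 63.7 and 71.5), which no library outside the Chd4 hairpins called. At deposited length 1 shluci library also called the Ank2 window, so its gain rests on the list length, and no shluci library called that of Phf21a.

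Sites with a CTCF motif were rarer in the loci than elsewhere: 42 of the 1174 windows (3.58%) held a match to the CTCF consensus, a motif of 14 bp searched on both strands within 250 bp of the window centre with at most 1 mismatch, against 5.57% of all windows. In the Chd4 set, 5 of the 7 such windows called by both shluci libraries were lost with both hairpins (71.4%), against 13.1% of all motif windows and 17.0% of the other windows in these loci. They lay at Katnal2 (2), Tcf20, Reln and Dyrk1a. The window 142781 bp past the Dyrk1a start, in its downstream flank near the start of Gm41504, had percentiles of 60.8 and 73.1 in shluci and was called by all 18 libraries outside the set. A Katnal2 exon window, with 81.6 and 12.7 in shluci, was also called by all 18. At deposited length, 1 of the 4 shRNA libraries called each of them except the intronic Katnal2 window, which none called. These 5 windows were named after their values had been seen.

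With IAA, the windows lost in the loci of the 31 genes in both media were mainly CTCF-motif windows. All 4 untreated libraries called 215 windows, of which 4 were absent from the lists of all 4 IAA libraries (1.86%, background 3.04%). Of 301 windows called by no library without IAA, 0 were called by all 4 with IAA (background 0.247%). Of the 4 lost windows 3 held the motif: 3 of 12 motif windows (25%, against 20.4% of all motif windows) and 1 of 203 others (0.493%, against 1.44%). Without control line replicate 2 or serum replicate 2 the count was 9 or 7 (3.96% or 2.5%, against 3.39% or 3.94% of all windows), and with a −log10 q of at least 10 it was 0 (against 1.78%). In serum-free medium, 34 windows were lost (5.35%, background 6.6%) and 34 gained (9.66%, background 9.38%), and in serum 21 were lost (8.54%, background 8.58%) and 33 gained (4.41%, background 3.54%). Leaving out any 1 of the 4 libraries of a medium gave 59 to 76 lost and 55 to 113 gained in serum-free medium (8.14% to 11.3% and 12.2% to 32.1%, against 10.2% to 11.1% and 13.2% to 24.9% of all windows), and 29 to 61 and 55 to 67 in serum (11.8% to 18.2% and 6.56% to 8.95%, against 12.9% to 15.9% and 5.63% to 8.84%). Among motif windows 9 of 21 were lost in serum-free medium (42.9%, against 34.8% of all) and 9 of 15 in serum (60%, against 40.8%).

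The 3 motif windows lost in both media lie in introns of Pogz, Dyrk1a and Tcf20. They are shown with the 2 perfect matches of the windows at Reln and Dyrk1a that were lost with the Chd4 hairpins, each as 30 bases of GRCm38.p6 in the direction of the motif, with the 14 matched bases in capitals. From 5′ to 3′ these are chr3:94849520-94849549 (minus strand), chr16:94618700-94618729 (minus), chr15:82814938-82814967 (plus), chr5:21986495-21986524 (plus) and chr16:94713906-94713935 (minus).
Pogz intron: ggcaatgcCCAATAGATGGCACtgtatcct
Dyrk1a intron: cctgcatcCCACAAGGTGGCAGtagagaac
Tcf20 intron: gccaatgaCCACCAGGTGTCAGtgtgacct
Reln intron: cggttctaCCAGTAGGTGGCAGggtaagca
Dyrk1a downstream: cagcatgcCCACCAGGGGGCGCtgtggccg
The first 3 differ from the consensus at 1 position each, and the last 2 match it fully.

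The Pogz window had percentiles of 43.3 and 50.3 in the control line and 21.3 and 61.0 in serum, was outside the lists of all 4 IAA libraries, and stayed outside in both lines that overexpressed CTCF. The Dyrk1a window had 37.7 and 71.9 in the control line, 30.9 and 34.2 in serum, and none with IAA, and it was listed again in the wild-type CTCF line (42.5 and 49.6) and in the mutated CTCF line (39.8 and 39.4). The Tcf20 window was weaker, with 18.6 and 11.3 in the control line and 32.6 and 17.8 in serum, and stayed outside the lists of both overexpressing lines. The fourth window, in a Setd5 intron just before an internal start at chr6:113103493-113103993, had no motif match, with 2 mismatches at best. It had 50.4 and 55.8 in the control line and 50.8 and 56.6 in serum, and it too was outside the lists of all 8 libraries with IAA, overexpressing lines included. The Tcf20 and Setd5 windows were also outside all 4 Chd4 shRNA lists while both Chd4 shluci libraries called them, at 19.6 and 34.9 and at 62.9 and 49.7. At deposited list length, too, none of the 4 IAA libraries compared called any of the 4 windows.

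**Figure D5:**
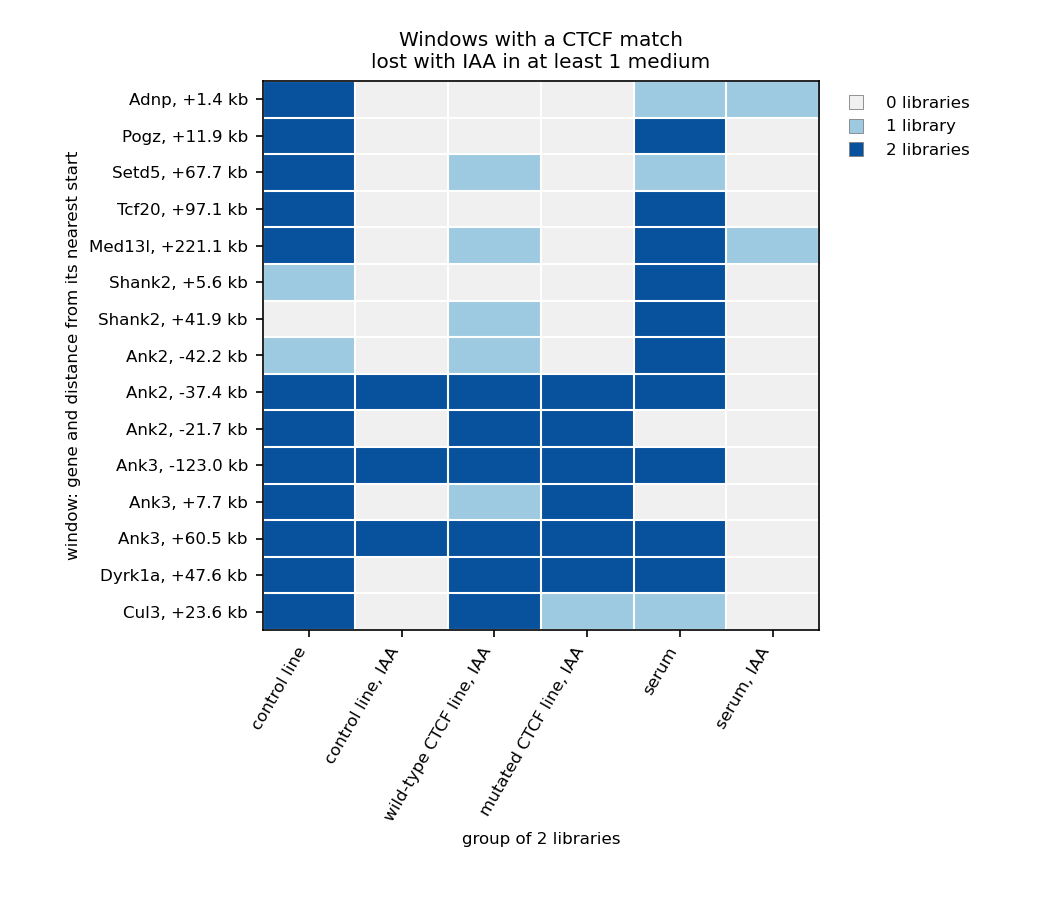
The 15 windows with a CTCF match in the loci of the 31 genes that were lost with IAA in serum-free medium, in serum or in both (rows, named by gene and distance in kb from its nearest start), with the number of libraries, of 2, that called each in 6 groups (columns). The Dyrk1a window is empty with IAA in the control line and in serum, and full in both lines overexpressing CTCF.

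Of the 9 motif windows lost with IAA in serum-free medium, both libraries of the wild-type CTCF line called 3 and both of the mutated CTCF line called 3, with 2 called in both lines. Over the series 2670 motif windows were lost in this way, of which the wild-type line called 45.8% in its 2 libraries, the mutated line 34.4%, and the lines together 26.0%. These windows were selected for their absence from the control line libraries with IAA. Among all motif windows that those libraries left out, the wild-type line gained 5 of 24 in the loci (20.8%, against 19.9% of all) and the mutated line 3 of 24 (12.5%, against 14.9%). Of the 9, the 2 windows called in both lines lay at Dyrk1a and in an intron of Ank2 near the start of C230031I18Rik. The Cul3 intron window returned in both libraries of the wild-type line and 1 of the mutated line, and an Ank3 intron window in 1 and 2. The difference between the lines was not tested. Neither library of the wild-type line called 3 of the 9, at Adnp, Pogz and Tcf20, and neither of the mutated line called those 3 or the windows at Setd5 and Med13l.

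Against the control line with IAA, the wild-type CTCF line lost 37 windows in the loci (6.01%, background 4.82%) and gained 21 (7.27%, background 8.1%), and the mutated CTCF line lost 31 (5.03%, background 3.63%) and gained 25 (8.65%, background 7.68%). The mean number of called windows was lower for 23 of the 31 genes in the wild-type line and for 21 in the mutated line, against 55.6% and 41.4% of genes with at least 10 windows. Both comparisons, and that of IAA in serum-free medium, use the same 2 control line libraries with IAA, in which the loci held 778 and 723 called windows against 672 to 722 in the overexpressing lines. At deposited list length the wild-type line lost 23 and gained 39 (3.61% and 14.2%, against 2.84% and 12.3%). Leaving out 1 library of a pair raised the losses to between 60 and 117, the highest being 117 and 108 without control line IAA replicate 2 (15.0% and 13.9%, against 11.3% and 9.22% of all windows). The gains rose to between 39 and 57 in the wild-type line (8.65% to 19.7%, against 11.1% to 19.4%) and to between 46 and 65 in the mutated line (10.6% to 22.5%, against 12.3% to 19.2%).

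Phf21a was the only gene of the 31 whose number of called windows differed without overlap, and in the same direction, between libraries with and without IAA in both media. It had 19 and 19 without IAA and 22 and 20 with IAA in serum-free medium, and 12 and 11 without and 14 and 14 with IAA in serum. This made 1 gene of 31 with more (3.23%, background 1.73%, or 2.44% of genes with at least 10 windows) and 0 with fewer (backgrounds 1.88% and 1.93%). Its exact permutation p, two-sided within the media, was 0.0556, the smallest these 8 libraries can give, and 1.0 after Benjamini-Hochberg adjustment over 20158 genes. Phf21a was also counted with every list of the series reduced to the shortest. In serum-free medium it then had 13 and 12 windows without IAA and 11 and 12 with IAA, which overlap. The values in serum stayed the same, so the Phf21a rise in serum-free medium depends on the list length. No promoter of the 31 genes was lost or gained in both media (backgrounds 0.0722% and 0.0501%). In serum-free medium 0 of 28 were lost (background 0.649%) and 0 of 2 gained (background 1.0%), and in serum 0 of 26 were lost (background 0.415%) and Tcf20 alone gained a peak at its basic starts (1 of 2, background 2.55%). These calls use the deposited lists, which in serum held 71773 and 82502 peaks with IAA and 69153 and 59786 without. In the reduced serum lists, of equal length, replicate 1 with IAA alone had the Tcf20 peak, so this gain depends on the list length. Against the control line with IAA, 0 of 29 promoters were lost in the wild-type line (background 0.29%) and in the mutated line (background 0.264%), and 0 of 1 gained (backgrounds 1.38% and 1.5%). Promoter peaks were found in 29 and 30 of the 31 genes with IAA and 28 and 29 without in serum-free medium, and in 29 and 29 with IAA and 27 and 28 without in serum. Over all protein-coding genes the shares in serum-free medium were 70.4% and 70.4% with IAA and 70.7% and 70.7% without. In serum they were 67.2% and 67.6% with IAA and 66.6% and 64.8% without, so all genes also had more with IAA there. The deposited serum lists with IAA were also the longer ones, and the part of list length in these promoter counts was not tested.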

How the data were processed

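ATAC-seq peaks of 24 mouse libraries in 12 groups of 2 were analysed. Per the submitters' processing notes, Trim Galore, Bowtie2, MACS2 and deepTools and the build mm10 were used, with versions and parameters not given in the sources used here. The authors deposited 1 peak list per library. Each list holds a deposited fold over the local background (ratio), a deposited −log10 p and a deposited −log10 q per peak, each peak's own value within its list; the fold was not used. Lists were reduced within a set to the shortest by −log10 p, and windows of 501 bp around summits were kept if at least 2 libraries called them (233706 of 405819). A lost window was called by every reference and no treated library, a gained window by every treated and no reference library. Backgrounds are the same shares over all windows, genes or promoters. Promoter calls used the deposited lists within 1 kb of starts of the GENCODE vM21 basic set; starts of the full set and the count by single promoter region (starts with overlapping 1 kb windows, merged) were added after seeing the data. Numbers of called windows per gene were compared by exact two-sided permutation with Benjamini-Hochberg adjustment over 20158 genes, a procedure tested on simulated data. The members, lists and tests were chosen with earlier results of these data known. Named were genes without overlap in the Chd8 set, genes lacking a promoter peak in at least 1 library, and the changed windows of highest mean percentile (up to 6 each in the Chd8 set and with IAA, up to 4 each in the Chd4 set). Sequences came from RefSeq and GRCm38.p6, the assembly behind mm10. Alternatives were list length, a −log10 q of at least 10, window coverage of at least 50%, gene bodies alone, 500 bp around starts, a replicate block and leaving out each library. Python 3.11.15, numpy 2.4.6, pandas 2.3.3 and matplotlib 3.10.9 were used. Differences between IAA and control in serum and serum-free cells were not tested against each other.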

Additional observations from a re-analysis of the deposited data

Results flagged for a closer look

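The number of called windows in the locus of Pogz moved in opposite directions with IAA in the 2 media. In serum-free medium it was 11 and 10 in the control line and 12 and 13 with IAA, a difference of means of 2.0 windows. In serum it was 5 and 4 without IAA and 2 and 3 with IAA, a difference of -2.0 windows. The difference between the media was not tested. The serum-free libraries are of the overexpression control line, a label that the serum libraries do not carry. Reduced lists also differ in length (120137 peaks in serum-free medium and 59786 in serum), so medium, line and list length cannot be told apart. Such opposite movement without overlap was seen in 1 of the 31 genes (3.23%) and in 1.65% of all 20158 genes. With all lists at 59786 peaks, the serum-free values were 6 and 5 without IAA and 6 and 6 with IAA, which overlap, with a difference of means of 0.5, so the opposite movement depends on the list length.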

How the results depend on the processing

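Of 119 alternatives that kept all libraries, 61 left a count within 1.5 times its value and 58 moved it; the cause was not tested. Shares in brackets are of windows in the 31 loci, then of all windows. With lists at 50% of the shortest, both Chd8 hairpins (10 lost and 8 gained in the report) gave 3 lost (1.92%, 2.92%) and 5 gained (0.613%, 0.47%), shRNA1 gave 10 (6.41%, 8.86%) and 14 (1.72%, 1.56%), and shRNA2 gave 6 (3.85%, 6.39%) and 15 (1.84%, 3.09%). With a −log10 q of at least 10 these were 1 (2.0%, 2.86%) and 1 (0.0968%, 0.088%), 3 (6.0%, 11.5%) and 3 (0.29%, 0.24%), and 3 (6.0%, 4.98%) and 9 (0.871%, 1.42%). Where a peak had to cover at least 50% of a window they were 2 (6.06%, 2.02%) and 0 (0.0%, 0.0912%), 6 (18.2%, 13.3%) and 1 (0.0962%, 0.152%), and 2 (6.06%, 3.21%) and 19 (1.83%, 2.02%). The share lost with both Chd8 hairpins was thus below that of all windows under the first 2 settings and above it under the third. At deposited length shRNA2 lost 28 (8.86%, 9.0%). Chd4 losses with both hairpins were 24 (57.1%, 45.2%) at the q limit and 16 (61.5%, 54.1%) with coverage, fewer in number but a larger share of the windows open to loss, and gains were 6 (0.908%, 2.36%) at deposited length, 0 (0.0%, 0.135%) at the q limit, 0 (0.0%, 0.0237%) with coverage and 1 (0.154%, 1.92%) with gene bodies alone. IAA losses in both media were 2 (1.67%, 3.09%) at 50% length and 0 (0.0%, 1.78%) at the q limit. Serum-free counts were 16 lost (4.95%, 6.45%) and 21 gained (2.8%, 2.84%) at 50% length, 6 gained (0.985%, 2.23%) at the q limit and 21 lost (5.16%, 6.35%) with coverage. Serum gave 10 gained (1.04%, 1.45%) at 50% length, 5 lost (5.32%, 4.1%) and 16 gained (1.57%, 2.41%) at the q limit and 10 lost (6.29%, 7.24%) with coverage. The wild-type CTCF line gave 23 lost (3.61%, 2.84%) and 39 gained (14.2%, 12.3%) at deposited length, 18 (5.39%, 4.45%) and 8 (1.09%, 1.93%) at 50% length, 5 lost (1.32%, 2.2%) at the q limit and 12 gained (2.24%, 2.51%) with coverage. The mutated line gave 8 lost (2.4%, 3.31%) and 11 gained (1.5%, 1.9%) at 50% length, 8 lost (2.11%, 1.53%) at the q limit and 15 gained (2.8%, 3.92%) with coverage. Genes with more Chd8 windows numbered 1 of 31 (3.23%) at deposited length, at 50% length and with gene bodies alone (1.75%, 1.86% and 1.78% of all genes), and 0 at the q limit and with coverage (0.501% and 0.337%). Genes with fewer Chd4 windows numbered 5 (16.1%, against 18.2% of all genes) at deposited length, 13 (41.9%, 22.7%) at the q limit and 5 (16.1%, 9.0%) with gene bodies alone. Genes with a promoter peak in every library numbered 10 (32.3%, against 25% of all genes) within 500 bp, 1 (3.23%, 2.55%) at the q limit and 7 (22.6%, 17.9%) with all lists at the shortest length.

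Leaving out 1 library in turn gave the following ranges of lost and then gained windows, with the range of the share in the loci and then of all windows. Both Chd8 hairpins gave 11 to 61 (3.9% to 12.1%, 4.65% to 10.4%) and 10 to 42 (1.92% to 5.66%, 2.03% to 4.77%), shRNA1 gave 49 to 115 (17.4% to 22.9%, 17.6% to 22.5%) and 52 to 79 (7.75% to 15.2%, 6.79% to 16.8%), and shRNA2 gave 34 to 95 (12.1% to 20.4%, 14.4% to 17.7%) and 70 to 112 (10.4% to 21.1%, 10.7% to 21.7%). Both Chd4 hairpins gave 45 to 84 (22.4% to 28.0%, 17.5% to 22.6%) and 4 to 9 (0.51% to 1.15%, 2.42% to 3.01%). IAA gave 4 to 9 (1.86% to 3.96%, 3.28% to 3.94%) and 0 to 3 (0.0% to 0.997%, 0.352% to 0.699%) in both media, 59 to 76 (8.14% to 11.3%, 10.2% to 11.1%) and 55 to 113 (12.2% to 32.1%, 13.2% to 24.9%) in serum-free medium, and 29 to 61 (11.8% to 18.2%, 12.9% to 15.9%) and 55 to 67 (6.56% to 8.95%, 5.63% to 8.84%) in serum. The wild-type CTCF line lost 65 to 117 (10.6% to 15.0%, 8.33% to 12.4%) and the mutated line 60 to 108 (8.99% to 13.9%, 7.24% to 9.22%), and they gained 39 to 57 and 46 to 65, with the shares given in the report. Genes with fewer windows numbered 0 to 7 (0.0% to 22.6%, against 3.76% to 16.3% of all genes) in the Chd8 set and 9 to 15 (29.0% to 48.4%, 21.6% to 30.7%) in the Chd4 set. Genes with more numbered 3 to 10 (9.68% to 32.3%, 3.62% to 17.1%) and 0 to 1 (0.0% to 3.23%, 4.91% to 7.95%). A promoter peak in every remaining library was kept by 16 to 17 genes (51.6% to 54.8%, 28.8% to 32.3%).

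With a replicate block, 1 gene had fewer Chd8 windows (3.23%, against 4.54% of all genes) and 13 had fewer Chd4 windows (41.9%, against 24.3%), with a smallest exact permutation p of 0.111. Same-numbered libraries correlated at -0.109 to 0.0628 in their deviations from group means, so the replicate numbers were not taken as pairing. Without sequencing depth, a window near a list's limit cannot be told from one just outside it.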
